A study of Mus musculus with 2 samples.

Results

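The lysyl oxidase family comprises 5 genes, *Lox*, *Loxl1*, *Loxl2*, *Loxl3* and *Loxl4*, and its transcripts were followed across the cell types of the normal mouse thoracic aorta. Members were picked by gene symbol, with earlier results of these data known, and 5 of the 32287 features of the count tables belonged to the family. Single cells were obtained from 2 individual thoracic aortas of GFPiSMC mice on the C57BL/6J strain at 12 weeks of age (1 group, n = 2 aortas). These animals are wild type for TGF-β signaling and carry a tamoxifen-inducible Cre driven by the *Myh11* promoter, a smooth muscle promoter, with the mT/mG reporter that turns green after recombination. Per the labels, all received tamoxifen intraperitoneally at 1 mg per day over 5 days when they were 3 weeks old, and single viable cells were sorted. The study's methods state a later start of tamoxifen, and a higher dose except for a subgroup induced young. The study's methods also name a gate on green SMCs, whereas 35.4% and 36.1% of the analysed cells were SMCs. Cell types of the same 2 aortas were therefore compared, without an aorta term in the main tests, and no treatment was compared.

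Lysyl oxidases are copper-dependent enzymes that are secreted into the extracellular matrix (ECM), where they oxidize lysine residues of elastin and collagens so that the fibers become cross-linked. *Lox* and *Loxl1* encode the members best known for elastic fibers, and loss of *Lox* in mice weakens the aortic wall. *Loxl2*, *Loxl3* and *Loxl4* encode a second group of members with scavenger receptor domains in front of the catalytic domain, and *Loxl2* is known to act on basement membrane collagen. In the aorta, smooth muscle cells (SMCs) fill the media between elastic laminae, fibroblasts occupy the collagen-rich adventitia, endothelial cells face the innermost elastic lamina, and mesothelial cells cover the outer surface.

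The members share a catalytic domain whose copper is held by closely spaced histidines, and the coding stretch for that site shows how alike and how distinct the transcripts are. In GENCODE vM21 (build GRCm38) *Loxl1* (ENSMUSG00000032334) lies at chr9:58287738-58313186 on the minus strand, *Loxl2* (ENSMUSG00000034205) at chr14:69609068-69695834 on the plus strand, *Loxl3* (ENSMUSG00000000693) at chr6:83034173-83052562 on the plus strand and *Loxl4* (ENSMUSG00000025185) at chr19:42593982-42612813 on the minus strand. The 33 coding bases below were found by a search of each translated coding sequence for the copper site, and capitals mark 4 histidine codons. They run 5′ to 3′ along the transcript of the longest coding sequence. Each is split by an intron, so that the coordinates of its first and last base enclose more than the stretch itself (*Loxl1* chr9:58293720-58294381, *Loxl2* chr14:69682316-69689037, *Loxl3* chr6:83049995-83050125, *Loxl4* chr19:42598807-42599899).
Loxl1: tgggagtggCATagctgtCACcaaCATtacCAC
Loxl2: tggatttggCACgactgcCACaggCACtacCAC
Loxl3: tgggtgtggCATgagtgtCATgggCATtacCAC
Loxl4: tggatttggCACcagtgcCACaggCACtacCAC
Across this stretch *Loxl2* and *Loxl4* shared 31 of 33 bases, and the other pairs of these 4 genes shared 21 to 25. The stretch of *Lox* was not compared. Over whole transcripts the members were nevertheless distinct, because no pair shared a run of 30 bases except *Lox* and *Loxl1*. These shared 3 different sequences of 30 bases, which may overlap. Reads of the 3′ chemistry come from transcript ends rather than from this site. An antisense gene (AC161119.1) overlaps exons of *Lox*, Gm27177 does the same at *Loxl2*, and the protein-coding *Htra2* overlaps exons of *Loxl3* on the opposite strand. The strand setting of the counting was not stated, and whether reads of these partners entered the counts was not tested.

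The tables held 8947 and 6263 cells, with 47009780 and 30919996 unique molecular identifiers (UMIs, the tags by which captured transcripts are counted). The labels state 4300 to 6278 analysed cells, and the study's limits of 5000 to 25000 UMIs left 3919 and 2560 before its limit on green reporter transcripts. With a lower limit of 1000 UMIs and removal of doublets, 6539 and 4614 cells remained, with a median of 5671 and 5397 UMIs per cell. Clustering gave 27 clusters that fell into 7 marker-based types. Each type name below means cells that resemble that type by its markers. They comprised 3981 SMCs, 2659 fibroblasts, 1591 myeloid cells, 1513 endothelial cells, 941 lymphocytes, 431 mesothelial cells and 37 erythroid cells. The marker list of each type was detected in full in its own type in both aortas. The barcode sets shared 18 barcodes. Family genes were left out of the clustering. Levels are given as UMIs per 1000000 UMIs of a type (CPM) and were not divided by transcript length, because UMIs of this chemistry count transcript ends.

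In the analysed cells the family had 31153 UMIs, with 15224 from *Loxl1*, 11241 from *Lox*, 2904 from *Loxl2*, 1679 from *Loxl3* and 105 from *Loxl4*. Fibroblasts held the largest part of every member. They supplied 45.8% ± 1.2 (SD, n = 2) of *Lox* UMIs, 58.4% ± 0.3 of *Loxl1*, 65.1% ± 3.1 of *Loxl2*, 50.9% ± 1.5 of *Loxl3* and 50.5% ± 0.6 of *Loxl4*. SMCs came next by mean share, with 21.1% ± 4.1 for *Loxl4* to 42.7% ± 1.5 for *Loxl3*, and 39.7% ± 0.04 for *Lox*. For *Loxl4* in aorta 1 SMCs and endothelial cells had 10 of 55 UMIs each. Endothelial cells supplied 12.8% ± 1.4 of *Lox* UMIs but only 0.8% ± 0.1 of *Loxl1* UMIs. Mesothelial cells supplied 9.0% ± 3.0 of *Loxl2* UMIs and 0.9% ± 0.3 of *Lox* UMIs. These shares depend on how many cells of each type were recovered by digestion and sorting, and levels per type are given next.

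*Lox* (ENSMUSG00000024529, chr18:52516067-52529867 on the minus strand), which encodes the founding enzyme of the family, had its highest level in fibroblasts, at 321 CPM in aorta 1 and 312 CPM in aorta 2. Endothelial cells followed with 246 and 252 CPM, and SMCs had 152 and 153 CPM. Mesothelial cells had 40.9 and 33.7 CPM. The aortas did not overlap between these neighbors in the order. Myeloid cells had 3.85 and 6.67 CPM and lymphocytes had 7.14 and 5.68 CPM.

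*Loxl1*, whose enzyme is tied to the upkeep of elastic fibers, followed a different order. Its level was 560 and 526 CPM in fibroblasts, 285 and 233 CPM in mesothelial cells and 186 and 179 CPM in SMCs, with no overlap between neighbors. Endothelial cells had 21.1 and 21.7 CPM, above the 5.05 to 9.64 CPM of myeloid cells and lymphocytes, and they overlapped with the few erythroid cells (25.2 and 21.3 CPM from 4 and 2 UMIs).

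*Loxl2* was highest in fibroblasts, at 109 and 126 CPM, and mesothelial cells came close with 102 and 85.3 CPM. SMCs had 23.2 and 23.7 CPM, and endothelial cells had 6.60 and 12.2 CPM. *Loxl3* reached 53.6 and 51.5 CPM in fibroblasts, 23.8 and 24.9 CPM in SMCs and 20.5 and 16.9 CPM in mesothelial cells. In endothelial cells it had 1.89 and 3.16 CPM, which overlapped with the 2.73 and 4.27 CPM of myeloid cells. *Loxl4* was scarce everywhere. Fibroblasts had 2.91 and 3.76 CPM, endothelial cells 3.14 and 3.16 CPM and mesothelial cells 2.76 and 4.96 CPM, against 0.577 and 0.998 CPM in SMCs. The first 3 types overlapped for *Loxl4*, and each of these values rests on 5 to 28 UMIs per aorta.

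**Figure D1:**
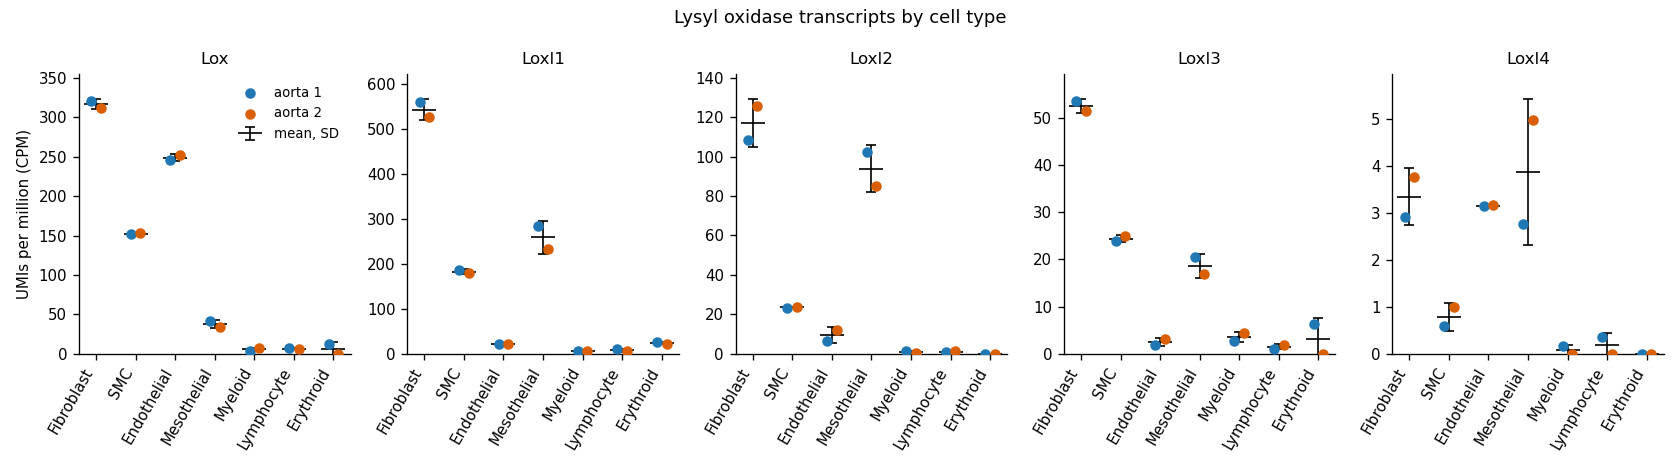
Level of each lysyl oxidase gene in 7 cell types, in UMIs per 1000000 (CPM, linear axes that start at 0 and differ between panels). Points are single aortas and bars give the mean and SD (n = 2). *Lox* stands at 246 and 252 CPM in endothelial cells, between fibroblasts and SMCs, where *Loxl1* has 21.1 and 21.7 CPM.

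The make-up of the family differed between cell types. In endothelial cells *Lox* made up 88.2% and 86.2% of the family's UMIs (exact 95% intervals 85.9 to 90.3 and 83.5 to 88.6). In mesothelial cells it made up 9.07% (7.19 to 11.3) and 9.02% (6.33 to 12.4). *Loxl1* held 63.1% and 62.3% there, and *Loxl2* held 22.7% and 22.8%. SMCs and fibroblasts lay between these extremes. *Lox* had 39.4% and 40.1% of the family's UMIs in SMCs and 30.7% and 30.6% in fibroblasts, and *Loxl1* had 48.3% and 46.9% in SMCs and 53.5% and 51.6% in fibroblasts. The intervals, which are Clopper-Pearson intervals here and below, cover counting error only.

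**Figure D2:**
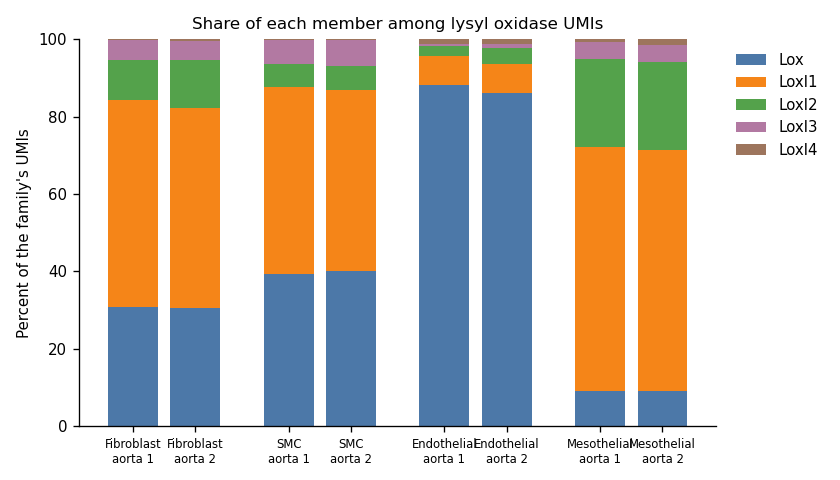
Share of each member among all lysyl oxidase UMIs of a cell type, in percent, with 1 bar per aorta. *Lox* fills 88.2% and 86.2% of the endothelial bars and 9.07% and 9.02% of the mesothelial bars, and *Loxl1* is the main member of the mesothelial bars.

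The share of cells with a transcript was also counted. After every cell was thinned to 1000 UMIs, at least 1 *Lox* UMI was found in 25.1% (exact 95% interval 22.1 to 28.3) and 21.8% (18.9 to 25.0) of endothelial cells and in 23.7% and 24.6% of fibroblasts, so that endothelial cells were higher in aorta 1 and fibroblasts in aorta 2. SMCs had it in 301 of 2315 cells (11.7 to 14.4%) and in 216 of 1666 cells (11.4 to 14.7%). Without thinning the shares were 51.3% and 46.5% in endothelial cells, 55.7% and 53.1% in fibroblasts and 53.9% and 54.6% in SMCs, with SMCs above endothelial cells in both aortas, at median depths of 3678 and 3027, 5836 and 5716, and 7709 and 7482 UMIs per cell. Myeloid cells, at 5405 and 5227 UMIs, had 0.406% and 0.66% after thinning. Any member was found in 61.4% and 61.7% of thinned fibroblasts, 38.0% and 36.3% of mesothelial cells, 29.0% and 30.2% of SMCs and 27.0% and 25.9% of endothelial cells. At least 2 members were found together in 69.7% and 71.9% of fibroblasts without thinning, in 50.3% and 49.6% of SMCs and in 6.12% and 4.39% of endothelial cells. After thinning these shares were 19.6% and 18.4% in fibroblasts, 3.71% and 3.36% in SMCs and 0.765% and 0.549% in endothelial cells.

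Media and adventitia were compared first, because SMCs and fibroblasts are the main matrix-producing cells of the aortic wall. All 5 members were lower in SMCs than in fibroblasts by edgeR's quasi-likelihood test with Benjamini-Hochberg adjustment over 13887 genes. In this comparison 31.0% of all genes tested were called lower in SMCs and 24.6% were called higher. The log2 fold change was −0.99 ± 0.10 (SE) for *Lox* (adjusted p = 8.2e-09), −1.50 ± 0.11 for *Loxl1* (adjusted p = 1.1e-11) and −2.24 ± 0.12 for *Loxl2* (adjusted p = 1.1e-13). It was −1.04 ± 0.12 for *Loxl3* (adjusted p = 5.6e-08) and −2.01 ± 0.42 for *Loxl4* (adjusted p = 2.7e-04). On a linear scale this range runs from 1.98-fold for *Lox* to 4.73-fold for *Loxl2*. The median over all genes tested was −0.09 under the scaling used and −0.35 with relative log expression scaling, which changed the split of called genes from 3413 higher and 4299 lower to 2302 higher and 6114 lower. No member changed direction under either scaling.

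SMCs and endothelial cells meet at the internal elastic lamina, and here the family split by member. *Loxl1*, *Loxl2* and *Loxl3* were higher in SMCs, whereas *Lox* and *Loxl4* were higher in endothelial cells (edgeR, both directions called). Among all genes tested 27.7% were called higher in SMCs and 26.5% lower. On the log2 scale SMCs exceeded endothelial cells by 3.31 ± 0.15 (SE) for *Loxl1* (adjusted p = 1.4e-15), 1.57 ± 0.22 for *Loxl2* (adjusted p = 1.1e-06) and 3.51 ± 0.26 for *Loxl3* (adjusted p = 2.0e-11). Endothelial *Loxl3* rests on 6 and 8 UMIs. Single aortas were compared, here and below, by differences of log2 CPM with a small prior count. Aorta 1 alone gave 3.77 for *Loxl3* and aorta 2 alone 3.07, with 2.02 and 1.13 for *Loxl2*. The fold change was −0.49 ± 0.11 for *Lox* (adjusted p = 3.5e-04) and −1.80 ± 0.54 for *Loxl4* (adjusted p = 0.0066). Under the narrower limits of 5000 to 25000 UMIs the *Lox* difference was −0.29 and no longer passed (adjusted p = 0.072), and *Loxl4* fell below the filter on low counts. Relative log expression scaling gave −0.71 for *Lox*, with 2887 genes higher and 4816 lower in place of 3843 and 3685.

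Endothelial *Lox* was set beside the markers of the neighboring cell types. In endothelial cells the 7 SMC markers stood at 1.67 to 8.01% of their SMC level in aorta 1 and 1.21 to 8.89% in aorta 2, and the 7 fibroblast markers stood at no more than 12.0% and 10.6% of their fibroblast level. *Lox* stood at 162% and 165% of its SMC level and 76.4% and 80.7% of its fibroblast level. *Loxl1* in endothelial cells, at 11.3% and 12.1% of its SMC level and 3.77% and 4.12% of its fibroblast level, lay close to the range of these markers. *Loxl3* in endothelial cells lay there too, at 7.91% and 12.7% of its SMC level and 3.52% and 6.13% of its fibroblast level. The part of transcripts from other cells in these levels, on which the folds of *Loxl1* and *Loxl3* against endothelial cells rest, was not tested.

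Within endothelial cells *Lox* was not evenly distributed. Cluster 3, led by Isl1, Emcn and Bmp6, had 267 and 286 CPM of *Lox*, and cluster 10, led by Adra2a, Sema3g and Sox17, had 275 and 305 CPM. Cluster 18, led by Mmrn1, Ccl21a and Prox1, which are known from lymphatic vessels, had 31.0 and 8.12 CPM from 5 and 2 UMIs. Cluster 20, led by Gpihbp1, Tcf15 and Rbp7, genes known from capillaries, had 7.08 CPM from 1 UMI in aorta 1 and 0 UMIs in aorta 2, where 3 UMIs would have given 30.4 CPM. The first pair of clusters overlapped with each other and stood above the other pair in both aortas. *Loxl2* was highest in cluster 18, with 68.1 and 105 CPM (11 and 26 UMIs), against 2.97 and 3.15 CPM in cluster 3 and 4.69 and 0 CPM in cluster 10. Cluster 20 had 0 *Loxl2* UMIs in both aortas, where 3 UMIs would have given 21.2 and 30.4 CPM. Cluster 18 thus held 37 of the 52 endothelial *Loxl2* UMIs from 121 of 1513 cells. These clusters were found in the same cells, and their differences were not tested. When clusters 18 and 20 (209 cells) were left out, a choice made after these values were seen, the log2 difference from SMCs became −0.70 for *Lox*, 3.16 for *Loxl2* and 4.11 for *Loxl3*. Since these clusters were chosen for their low *Lox*, and cluster 18 held most endothelial *Loxl2* UMIs and 6 of the 14 *Loxl3* UMIs, the direction of all 3 changes follows from the choice.

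**Figure D3:**
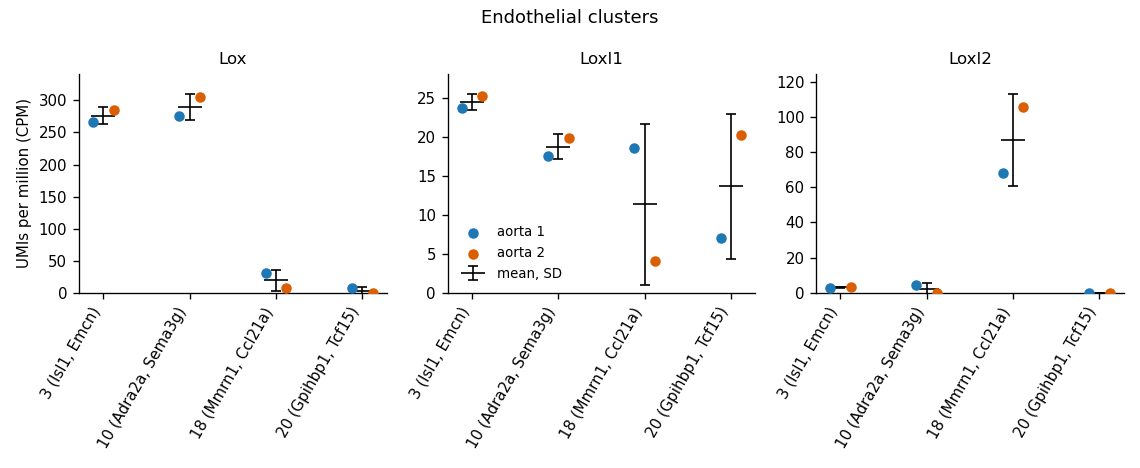
Level of *Lox*, *Loxl1* and *Loxl2* in the 4 endothelial clusters, in UMIs per 1000000 (CPM, linear axes that differ between panels), with the leading genes of each cluster in parentheses. Points are single aortas and bars give the mean and SD (n = 2). *Lox* lies at 267 to 305 CPM in clusters 3 and 10, and *Loxl2* at 68.1 and 105 CPM in cluster 18.

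Fibroblasts exceeded endothelial cells in 4 members, and 25.0% of all genes tested were called higher in fibroblasts and 20.0% lower (edgeR). For *Loxl1* the difference on the log2 scale was 4.81 ± 0.15 (SE, adjusted p = 9.7e-19), *Loxl3* 4.55 ± 0.24 (adjusted p = 2.9e-14) and *Loxl2* 3.82 ± 0.19 (adjusted p = 1.4e-14). Aorta 1 alone gave 4.84 for *Loxl3* and 4.15 for *Loxl2*, and aorta 2 alone 4.05 and 3.47. Without endothelial clusters 18 and 20 the values were 5.14 and 5.40. The *Lox* difference was far smaller at 0.49 ± 0.11 (adjusted p = 4.0e-04), and without clusters 18 and 20 it was 0.29. *Loxl4* had 0.20 ± 0.46 and did not pass (adjusted p = 0.76).

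In the outer wall mesothelial cells were compared with fibroblasts, and 23.5% of all genes tested were called lower in mesothelial cells and 16.1% higher (edgeR). *Lox* showed the largest difference of the family, at −3.26 ± 0.15 (log2 fold change ± SE, adjusted p = 2.9e-15), or 9.55-fold. *Loxl3* had −1.66 ± 0.19 (adjusted p = 9.3e-08), *Loxl1* −1.26 ± 0.12 (adjusted p = 2.9e-09) and *Loxl2* −0.50 ± 0.14 (adjusted p = 0.0066). For *Loxl2* aorta 1 alone gave −0.29 and aorta 2 alone −0.77, so that the size of this difference depended on the aorta. *Loxl4* had −0.08 ± 0.56 and did not pass (adjusted p = 0.94). The mesothelial group included 25 cells of a cluster led by Cxcl13 and Col6a5, with no mesothelial marker among its 10 leading genes. The remaining 406 cells had 37.8 CPM of *Lox* and 268 CPM of *Loxl1* as means of the aortas. The fibroblast marker *Dcn* reached 32.8% and 41.6% of its fibroblast level in mesothelial cells, whereas the median fibroblast marker stood at 2.45% and 2.50%.

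**Figure D4:**
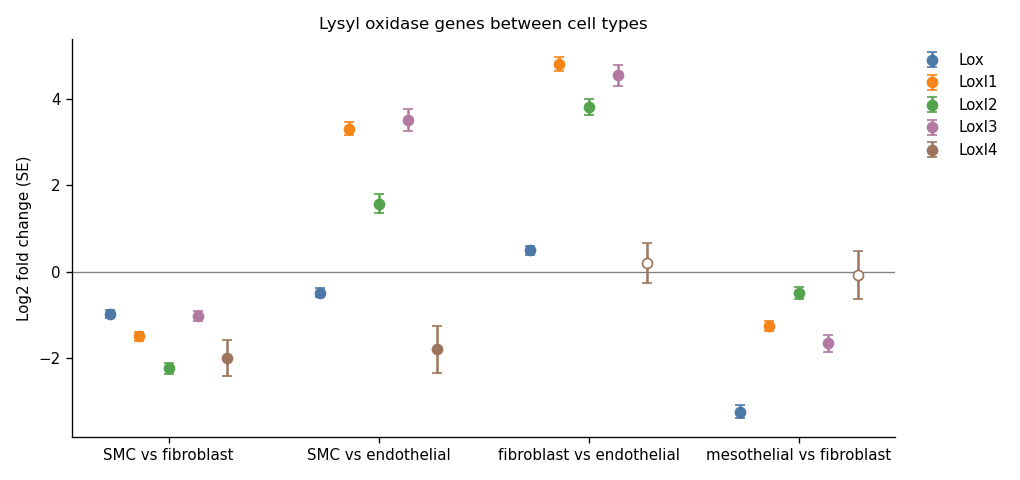
Log2 fold change of each member in 4 comparisons of cell types (edgeR, n = 2 aortas per type), with bars for the standard error. Filled points passed an adjusted p under 0.05 and open points did not. *Lox* is −0.49 for SMCs over endothelial cells where *Loxl1* is 3.31, and −3.26 for mesothelial cells over fibroblasts.

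Fibroblasts were clustered again without the family genes. Among the 6 subsets with few SMC transcripts, the mean level of *Lox* ran from 57.4 CPM in subset 5 to 760 CPM in subset 3. Subset 3, led by Hhip, C1qtnf3 and Sfrp2, had 797 and 723 CPM of *Lox*, and subset 0, led by Frzb and Dio2, had 386 and 537 CPM. Subset 2, led by Pla1a and Dact2, had 74.5 and 71.1 CPM. Subset 1, led by Comp and Hmcn2, had 213 and 195 CPM and overlapped with subset 4, led by Epyc and Tcf21, at 209 and 246 CPM. Subset 5, led by Chrm2, had 60.6 and 54.1 CPM. After thinning, 48.9% and 52.5% of subset 3 cells had a *Lox* UMI, against 6.42% and 5.26% of subset 2 cells.

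The order of these subsets was not the same for the other members. *Loxl1* overlapped between subset 2 (637 and 585 CPM) and subset 0 (670 and 619 CPM), although *Lox* differed 6.34-fold between their mean levels. *Loxl2* was highest in subsets 3 (186 and 180 CPM), 2 (179 and 158 CPM) and 1 (142 and 173 CPM), which overlapped in part, and lower in subset 0 (64.8 and 80.1 CPM) and subset 4 (32.0 and 41.7 CPM). *Loxl3* was highest in subsets 1 (78.2 and 71.6 CPM) and 3 (73.0 and 59.9 CPM). It had 17.6 and 6.01 CPM in subset 5, from only 9 and 1 UMIs. All 4 members that could be tested differed among fibroblast subsets (edgeR F test, adjusted p = 1.3e-12 for *Lox*, 1.0e-06 for *Loxl1*, 2.6e-10 for *Loxl2* and 1.5e-05 for *Loxl3*), beside 39.7% of 10631 genes called. *Loxl4* fell below the filter on low counts and was not tested. Subset 6, led by Actg2 and Tcap with Myh11 and Cnn1 among its leading genes, carried SMC markers at a summed 14313 and 20559 CPM, against 510 to 1535 CPM in the other fibroblast subsets, and its fibroblast markers summed to 10301 and 7008 CPM. Its *Lox* level was 79.2 and 19.3 CPM, from 20 and 5 UMIs.

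Among SMC subsets *Lox* was highest in subset 1, led by Adamtsl1, Hhip and Dlx6, at 193 and 222 CPM, and lowest in subset 6, led by Gprc5c, Kcna5 and Notch3, at 66.2 and 51.4 CPM. The other SMC subsets lay between 110 and 155 CPM. *Loxl2* had 39.5 and 40.3 CPM in subset 1, which overlapped with subset 4 (40.7 and 30.1 CPM from only 6 and 4 UMIs). It was lower in subset 0, led by Hand2 and Tnnt2 (mean 12.4 CPM), and nearly absent from subset 6, with 1 UMI in each aorta. *Loxl1* was highest in subset 5 (300 and 266 CPM), a set of 120 cells in which fibroblast markers summed to 2755 and 2895 CPM, against 60 to 207 CPM in the other SMC subsets. Next came subset 1 with 232 and 222 CPM. *Loxl3* lay between 14.4 and 32.5 CPM in every SMC subset and aorta. The F test called *Lox* (adjusted p = 8.5e-07), *Loxl1* (adjusted p = 5.3e-05) and *Loxl2* (adjusted p = 3.0e-07), beside 52.8% of 9828 genes, and did not call *Loxl3* (edgeR adjusted p = 0.44). *Loxl3* did pass when all genes entered the clustering (adjusted p = 0.036) and with cells of 5000 to 25000 UMIs (adjusted p = 0.035). Subsets were found in the same cells, so this test is not independent of the clustering, and its calls are set beside the share of all genes called.

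**Figure D5:**
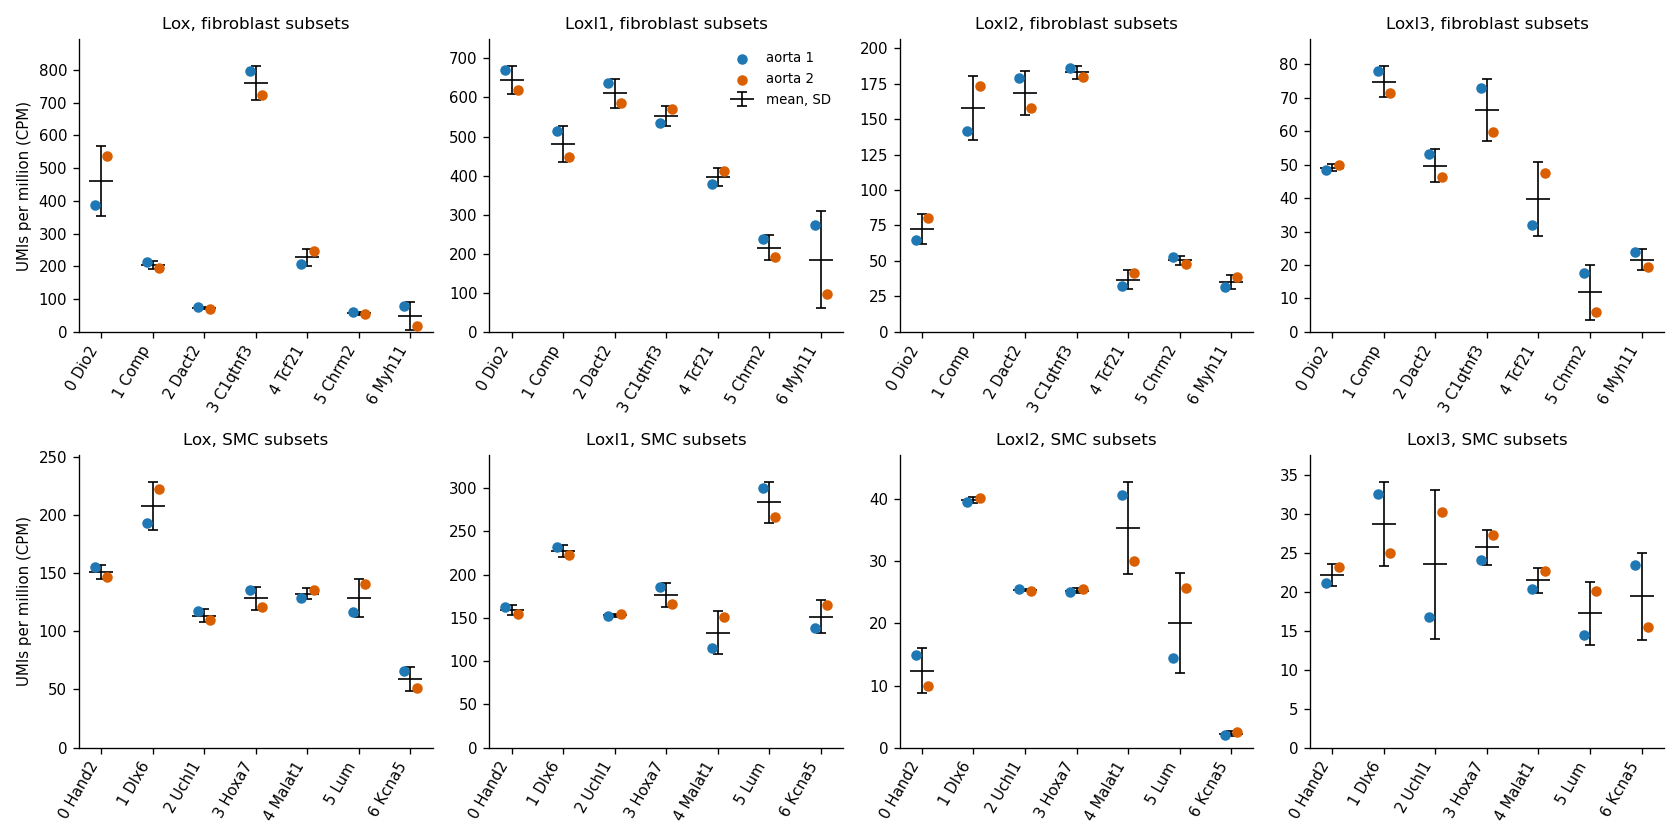
Level of *Lox*, *Loxl1*, *Loxl2* and *Loxl3* in 7 fibroblast subsets (top) and 7 SMC subsets (bottom), in UMIs per 1000000 (CPM, linear axes that differ between panels), each subset labelled by a leading gene. Points are single aortas and bars give the mean and SD (n = 2). *Lox* reaches 797 and 723 CPM in the C1qtnf3 fibroblasts and 74.5 and 71.1 CPM in the Dact2 fibroblasts, in which *Loxl1* has 637 and 585 CPM.

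The substrates of the enzymes were examined in the same fits. Of 9 fibrillar collagen genes 7 could be tested, and all 7 were lower in SMCs than in fibroblasts, where 31.0% of all genes were called lower and 24.6% higher, with a median log2 fold change of −2.79 against −0.09 for all genes. *Col1a1*, a chain of type I collagen, reached 7892 and 7814 CPM in fibroblasts. SMCs had 613 and 612 CPM of it and endothelial cells 59.8 and 46.2 CPM. *Col5a2*, which encodes a chain of type V collagen, stood at 340 and 361 CPM in endothelial cells and at 264 CPM in SMCs of both aortas, and the difference of −0.19 did not pass (edgeR adjusted p = 0.23), although it did with relative log expression scaling (−0.40, adjusted p = 0.0089). Between SMCs and endothelial cells 4 of 7 fibrillar collagens were higher in SMCs and none was lower, beside 27.7% and 26.5% of all genes.

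Of 12 tested elastic fiber genes 10 were lower and 1 was higher in SMCs than in fibroblasts, beside 31.0% and 24.6% of all genes. The 10 include *Mfap5*, which did not pass by DESeq2 (adjusted p = 0.094). The exception was *Eln*, the gene of elastin, with 3342 and 3223 CPM in SMCs and 1571 and 1435 CPM in fibroblasts (log2 fold change 1.20 ± 0.18). Endothelial cells had 3044 and 2990 CPM of *Eln*, and the difference from SMCs did not pass (0.34 ± 0.18, edgeR adjusted p = 0.11). *Fbln5*, which encodes an elastin-binding fibulin, was higher in endothelial cells (1249 and 1432 CPM) than in SMCs (653 and 780 CPM). *Mfap4*, which encodes a microfibril-associated protein, had 23.3 and 18.5 CPM in endothelial cells against 910 and 925 CPM in SMCs. Between SMCs and endothelial cells 6 of 12 elastic fiber genes were higher in SMCs and 4 were lower, beside 27.7% and 26.5% of all genes, with a median of 0.73 against 0.00 for all genes. The 6 also include *Mfap5*, which again did not pass by DESeq2 (adjusted p = 0.15).

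Of 10 tested genes for processing and scaffold proteins 8 were lower and 1 was higher in SMCs than in fibroblasts, where 31.0% and 24.6% of all genes were called. The 8 include *Fn1*, the gene of fibronectin, which did not pass by DESeq2 (adjusted p = 0.23). *Pcolce*, which encodes an enhancer of procollagen processing, had 1146 and 1142 CPM in fibroblasts, 616 and 687 CPM in mesothelial cells and 17.5 and 16.9 CPM in SMCs. *Postn*, whose product periostin binds matrix and processing enzymes, was the exception, with 877 and 769 CPM in SMCs and 74.1 and 102 CPM in fibroblasts. The lysyl hydroxylases Plod1, Plod2 and Plod3, which modify collagen lysines inside the cell, were all lower in SMCs than in fibroblasts, as were 31.0% of all genes. *Plod1*, with the largest difference of the 3 (edgeR adjusted p = 3.3e-08), had 28.5 and 26.3 CPM in SMCs and 61.2 and 54.2 CPM in fibroblasts, and the log2 fold change was −0.51 for Plod2 and −0.72 for Plod3. Of 6 type IV collagen genes, which build basement membranes, 3 were higher and 2 lower in SMCs than in fibroblasts, beside 24.6% and 31.0% of all genes. The 3 include *Col4a1*, which did not pass with relative log expression scaling (edgeR adjusted p = 0.095) or by DESeq2 (adjusted p = 0.16). All 6 were lower in mesothelial cells than in fibroblasts, as were 23.5% of all genes.

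Of 5 tested copper supply genes 1 was higher and 3 were lower in SMCs than in fibroblasts, where 24.6% and 31.0% of all genes were called. *Atp7a*, which encodes the pump that loads copper onto secreted enzymes, was lowest in SMCs, at 9.76 and 8.81 CPM. Fibroblasts had 22.3 and 20.8 CPM, endothelial cells 26.1 and 25.2 CPM and mesothelial cells 38.1 and 37.7 CPM. SMCs were lower than fibroblasts by a log2 fold change of −1.14 ± 0.16 and lower than endothelial cells by −1.24 ± 0.19. *Aoc3*, which encodes a copper amine oxidase outside the family and was the only 1 of 3 that could be tested, reached 164 and 159 CPM in SMCs. Fibroblasts had 30.5 and 31.6 CPM and endothelial cells 3.46 and 2.76 CPM. Its log2 fold change of SMCs over fibroblasts was 2.45 ± 0.10, opposite in sign to all 5 lysyl oxidases.

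The genes whose levels followed each member most closely were ranked by Pearson correlation of log2(CPM + 1) over 14 sums (7 types in 2 aortas) among 13887 genes. These sums share libraries and differ in depth, so the values are descriptive. For *Lox* the highest were Kazald1 (0.99), Npr2, P3h3, Reck and Col5a2 (0.98 each). For *Loxl1* they were Vgll3 (0.98), Fzd2, Smarca1, Olfml1 and Pcdh11x. *Loxl2* was followed by Zfp503 (0.99), Chrd, Mrc2, Susd2 and Gli3, and *Loxl3* by Mmp23, Adamts2, Ogn, Olfml2b and Col6a1 (0.97 each). *Loxl4*, with 105 UMIs in all, was followed by Cdr2l, Itga2b, Tpbg, Erbb2 and Galnt15. The 5 lists had no gene in common, and no member was among the 5 genes closest to another member. *Loxl1* and *Loxl2* were closest to each other within the family (0.91), and *Lox* and *Loxl1* had 0.66.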

How the data were processed

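Single-cell 3′ libraries (10x Genomics, v3.1 chemistry) of 2 thoracic aortas were analysed as 1 group. Per the file headers and labels, the authors made the deposited UMI counts with Cell Ranger 4.0.0 on mm10 with eGFP and tdTomato added. Seurat 4.0 is named in the submitters' processing notes, and the use of strand was not given in the sources used here. The deposited counts were raw. Cells with more than 200 genes, 1000 to 25000 UMIs and under 10% mitochondrial UMIs were kept, and Scrublet removed 205 and 84 doublets (3.04% and 1.79%). Clustering used scanpy 1.11.5 and leidenalg 0.10.2 (python 3.11.15; 2000 variable genes, 30 components, resolution 1), and left out 112 genes, the family and all lists included. Clusters were named by at least 3 detected markers of a fixed list. The UMIs of each cell type were summed within an aorta, and the sums were tested by edgeR 4.0.16 (R 4.3.3) with the quasi-likelihood test, TMM scaling and filterByExpr. The fit had cell type as its only term, all types shared 1 estimate of the spread, and p-values were adjusted by Benjamini-Hochberg over all genes tested, with calls at 0.05. Subsets were found by clustering SMCs or fibroblasts again (20 components, resolution 0.5). The procedure was tested on simulated counts.

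The aortas came from 2 individual animals. The p-values rest on the spread between the 2 sums of each type or subset, pooled over types or subsets. The main fits treated all sums as independent, and they cover no more than these 2 animals. Same-numbered sums come from the same animal and are paired by design. Over 15 pairs of cell types and 6856 genes, the correlation of same-numbered deviations ran from 0.00879 to 0.230 with a median of 0.0972. Precision is limited by UMIs per type, and intervals and floors of 3 UMIs cover counting error only. Members and lists were chosen with earlier results of these data known. Named genes were the 5 members, up to 4 genes of each list with the most UMIs, and the 5 genes most correlated with each member. Annotation and coding sequences came from GENCODE vM21. Protein sequences were not used here. Alternatives were DESeq2 1.42.0, relative log expression scaling, no gene filter, other limits on UMIs, doublets kept, other clustering, an aorta block, only the types compared, SMCs with more than 1 eGFP UMI, and single aortas. Leaving out endothelial clusters 18 and 20, or SMC subset 5 and fibroblast subset 6, was chosen after seeing the data.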

Additional observations from a re-analysis of the deposited data

How the results depend on the processing

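No fold change of a member that passed the test reversed under any alternative. Of 251 alternative fold changes of members with a test, 250 stayed on their side of the threshold, and *Loxl4* differences that did not pass changed sign near 0. With cells of 5000 to 25000 UMIs the *Lox* difference between SMCs and endothelial cells was −0.29 (edgeR adjusted p = 0.072). The cause was not tested. At those limits *Loxl4* was filtered out, and *Loxl3* differed among SMC subsets (edgeR adjusted p = 0.0346), as it did when all genes entered the clustering (adjusted p = 0.0358). Single aortas gave *Loxl4* log2 fold changes from −1.97 to −1.63 for SMCs over fibroblasts and from −1.93 to −1.27 for SMCs over endothelial cells, both smallest in aorta 2. They gave −0.77 to −0.29 for *Loxl2* of mesothelial cells over fibroblasts and 1.13 to 2.02 for *Loxl2* of SMCs over endothelial cells. These single-aorta values are differences of log2 CPM with a small prior count, which shrinks those from few UMIs, and are not edgeR estimates. The main *Loxl4* value of −2.01 for SMCs over fibroblasts lay outside the single-aorta range. Aortas taken singly allow no test, and no subset test was possible. With the aorta as replicate block, 8032 genes in place of 7712 were called between SMCs and fibroblasts, and no call of a member changed. DESeq2 called 2239 genes higher and 5875 lower in SMCs than in fibroblasts, and 2803 higher and 4808 lower than in endothelial cells, and without a gene filter the split from fibroblasts was 4259 and 4003. Over all alternatives, 11 counts of called list genes moved beyond a fixed limit on their ratio to the main count, and 703 did not. Among listed genes, *Mfap5* (adjusted p = 0.094) and *Fn1* (adjusted p = 0.23) did not pass between SMCs and fibroblasts by DESeq2, nor did *Col4a1* by DESeq2 (adjusted p = 0.16) or with relative log expression scaling (adjusted p = 0.095). Naming clusters more strictly left the cluster of 406 mesothelial cells without a name, because Myl7, a cardiomyocyte marker, is among its leading genes. Only the 25 cells of the cluster led by Cxcl13 and Col6a5 then kept the mesothelial name, and that contrast was not run. Depth limits *Loxl4* most, with 105 UMIs in all, and endothelial *Loxl2* and *Loxl3*.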
